A study of Mus musculus with 9 samples.

Results

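The BCL2 family holds the proteins that set whether a cell keeps its mitochondria intact or dies by apoptosis. The 10 genes described here were chosen by symbol: the survival genes Bcl2, Bcl2l1, Mcl1 and Bcl2a1b, the BH3-only genes Bcl2l11, Pmaip1, Bbc3 and Bmf, and the pore-forming genes Bax and Bak1. They are 10 of 37022 mouse genes in the deposited tables. All 10 reached the minimum signal set for the gene body, the transcribed stretch of a gene, and 6 of them reached it in the pause region near the start of transcription. The libraries hold newly made RNA of mouse CD8+ T cells, the lymphocytes that kill infected and tumour cells. Cells were given 5-ethynyl uridine, a uridine analog built into RNA as it is made, at 0.2 mM for 30 min, so that RNA made in that interval could be captured. The acute group (3 libraries) comes from T cells stimulated acutely, the chronic group (3 libraries) from T cells stimulated chronically, and the chronic MEK-inhibited group (3 libraries) from chronically stimulated T cells that also received a MEK inhibitor. The question of the design is how nascent transcription differs between acute stimulation, chronic stimulation, which drives T cell exhaustion, and chronic stimulation with MEK, a kinase of the MAPK cascade, inhibited. Mouse strain, age, the inhibitor's name and dose, and the manner and length of stimulation are not given in the sources used here. Nothing there says whether the 3 libraries of a group came from separate animals or cultures, so p-values measure only the spread between these libraries, which may be technical.

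As background, BCL2, BCL-XL (from Bcl2l1), MCL1 and A1 (from the Bcl2a1 genes) hold BAX and BAK in check on the outer mitochondrial membrane. BH3-only proteins bind the survival proteins, or BAX and BAK directly, and free the latter to form pores that release cytochrome c. In T cells, BIM (from Bcl2l11) is known for the death of activated cells once antigen and cytokines fall, NOXA (from Pmaip1) for its preference for MCL1 and A1, and PUMA (from Bbc3) as a target of p53. ERK, the kinase that MEK activates, is known to mark BIM for degradation and to stabilise MCL1 at the protein level, which nascent RNA does not measure.

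The values are scaled signal, a coverage-like quantity that the authors deposited. They were brought here to a common scale by a factor per library, set separately for the gene body and the pause region. The deposited gene-body totals were close in all 9 libraries and the number of reads behind them is unknown. All 7 T cell markers passed the minimum, with a summed scaled signal of 25528 to 30997 in the acute, 16541 to 18547 in the chronic and 25261 to 27573 in the MEK-inhibited libraries. Cd8a, a chain of the CD8 co-receptor, had means of 4061, 968 and 2881 in these groups. Of the markers of other cells, 2 of 5 for B cells passed the minimum (summed signal 534 to 565, 189 to 219 and 160 to 435 in acute, chronic and MEK-inhibited libraries), as did 2 of 6 for myeloid cells, 1 of 3 for NK cells, 1 of 4 for fibroblasts or epithelium and 0 of 3 for erythroid cells. The NK marker that passed was Eomes (means 1324, 1410 and 1583 in these groups), while Ncr1 and Klrb1c did not pass. Cd4, the marker of CD4+ T cells, had means of 442, 234 and 116 and was called lower in chronic than in acute libraries (-0.98, limma adjusted p = 0.0174) and in MEK-inhibited than in chronic ones (-0.91, limma adjusted p = 0.0449). Dusp6, a phosphatase gene induced by ERK signalling, was lower with the inhibitor, with a log2 fold change of -3.52 from a chronic mean of 2395 to 204. A ribosomal RNA-like locus took 19.1 to 22.3% of the gene-body signal in acute, 34.2 to 40.6% in chronic and 29.0 to 36.1% in MEK-inhibited libraries. Scaling to library totals, which include it, moved the median log2 change of all genes between chronic and acute from -0.02 to -0.50, so each change is read relative to the median gene. The part of these differences in the results for the BCL2 family was not tested. In bulk libraries like these, fewer cells of a type and less RNA per cell cannot be told apart.

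RefSeq start-site windows of GRCm38.p6, from 250 bases before to 50 after a gene's start, were searched on both strands for 9 short motifs. Some are general promoter elements (the GC box and TATAAA) and others are sites of factors tied to T cell stimulation. Pmaip1 was left out of this search, and 16 windows of the other 9 genes were read. A window each of Bcl2, Bcl2l11, Bbc3 and Bax, picked after the search from the genes with called changes for the motifs they hold, is shown for its 250 upstream bases, 5′ to 3′ on the gene's strand, with motif letters in capitals: GGGCGG (the GC box bound by SP1), GTAAACA (a FOXO core), GCGGGGGCG (an EGR core) and CACGTG (an E-box, as bound by MYC).
Bcl2: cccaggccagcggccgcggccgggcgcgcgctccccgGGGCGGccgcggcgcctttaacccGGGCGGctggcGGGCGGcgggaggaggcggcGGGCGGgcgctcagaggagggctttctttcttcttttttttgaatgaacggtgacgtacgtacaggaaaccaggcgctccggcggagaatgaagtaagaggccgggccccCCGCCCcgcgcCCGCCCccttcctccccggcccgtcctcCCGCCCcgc
Bcl2l11: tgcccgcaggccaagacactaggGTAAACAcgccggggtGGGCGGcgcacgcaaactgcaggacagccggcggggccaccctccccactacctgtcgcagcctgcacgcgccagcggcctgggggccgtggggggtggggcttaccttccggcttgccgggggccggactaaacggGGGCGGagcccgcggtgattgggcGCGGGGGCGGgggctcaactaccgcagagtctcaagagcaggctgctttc
Bbc3: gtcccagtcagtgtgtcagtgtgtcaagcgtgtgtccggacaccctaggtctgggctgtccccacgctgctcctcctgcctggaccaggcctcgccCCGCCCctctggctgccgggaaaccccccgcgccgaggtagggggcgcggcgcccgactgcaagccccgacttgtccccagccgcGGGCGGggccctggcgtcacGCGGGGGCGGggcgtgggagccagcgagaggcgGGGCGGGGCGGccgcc
Bax: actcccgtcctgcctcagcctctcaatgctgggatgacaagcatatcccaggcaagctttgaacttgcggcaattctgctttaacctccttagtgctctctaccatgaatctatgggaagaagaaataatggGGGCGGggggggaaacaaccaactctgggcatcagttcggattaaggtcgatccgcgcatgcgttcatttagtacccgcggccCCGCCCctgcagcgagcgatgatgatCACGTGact
The Bcl2 stretch lies at chr1:106714291-106714540 on the minus strand and holds 7 GC boxes and none of the other motifs. The Bcl2l11 stretch, chr2:128125788-128126037 on the plus strand, has a FOXO core that begins 227 bases before the start and an EGR core that begins 50 bases before it. The Bbc3 stretch, chr7:16309333-16309582 on the plus strand, has an EGR core 49 bases before the start. In both genes the EGR core overlaps a GC box, so that their capitals run together. The Bax stretch, chr7:45466899-45467148 on the minus strand, has an E-box 9 bases before the start. A further Bbc3 start has a FOXO core 167 bases upstream, within chr7:16310083-16310112 on the plus strand, shown because FOXO factors are known regulators of both Bbc3 and Bcl2l11.
Bbc3, FOXO core of the further start: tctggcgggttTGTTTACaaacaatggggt
Among all 32851 windows, 35.7% hold a GC box, 7.15% an E-box, 3.65% the FOXO core and 2.91% the EGR core. Of the 16 windows of the family, 10 hold a GC box, 2 a FOXO core, 2 an EGR core and 2 an E-box. By gene, 7 of the 9 hold a GC box. Some genes have several windows, and the Bbc3 windows that begin at 16310011 and 16310181 overlap, so the same letters can count more than once. TGANTCA, the AP-1 site, is in 1 window (Bcl2a1b; 7.81% of all windows) and CCGGAAGT, an ETS site, in 1 (Bcl2l1; 3.89%). TGACGTCA (a CRE; 1.79%), TATAAA (the core promoter box; 13.6%) and an NF-kB site (0.411%) are in none of them. A match of letters is a description of the sequence and no measure of binding.

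Between chronic and acute stimulation, gene-body signal of 3 of the 10 genes rose and that of 2 fell at an adjusted p under 0.05 (limma, Benjamini-Hochberg over 15942 genes). The share of all genes called was 33.9%, made up of 18.0% that rose and 15.9% that fell. With the inhibitor against chronic stimulation alone, 4 rose and 1 fell, where 17.6% of all genes were called (9.93% higher, 7.65% lower). Between the MEK-inhibited and acute groups, 3 rose and 2 fell, where 25.8% were called (14.4% higher, 11.5% lower). The median log2 change of the 10 genes was 0.14, 0.30 and 0.30 in these comparisons, beside -0.02, 0.04 and 0.00 over all genes. Under library totals the first comparison held 1 higher and 5 lower genes, with a median of -0.33, and the third 3 higher and 3 lower. Groups did not overlap for 5, 7 and 7 of the 10 genes, and for 44.2%, 32.2% and 42.0% of all genes. Each group serves in 2 of the 3 comparisons, so the comparisons are not independent.

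**Figure D1:**
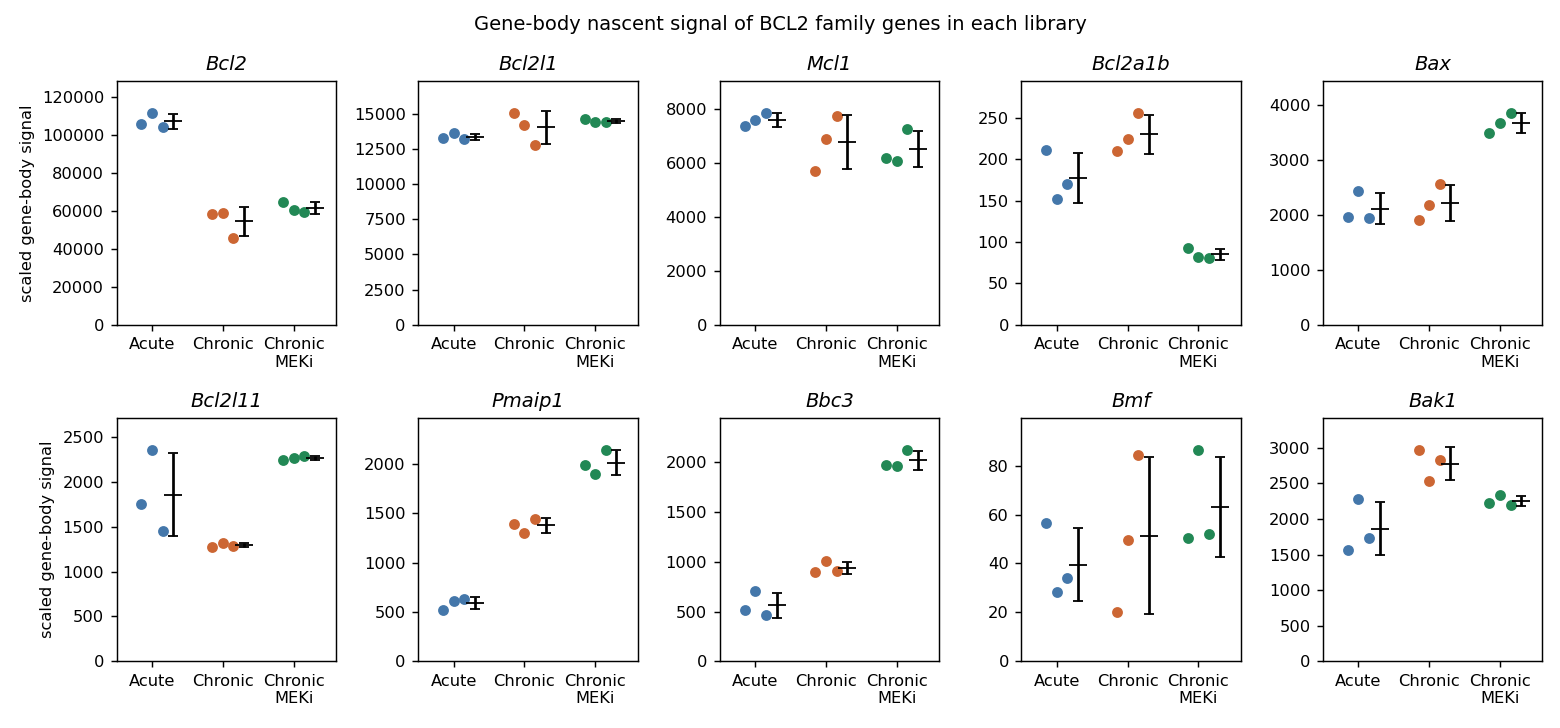
Scaled gene-body signal (linear axis from 0, own scale per gene) of the 10 BCL2 family genes; points are the 3 libraries of a group and black marks are their mean ± SD. Bcl2 sits near 107320.0 in acute libraries and between 45811 and 64841 in the others, while Pmaip1 and Bbc3 step up from acute to chronic to MEK-inhibited libraries.

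Bcl2, the survival gene for which the family is named, showed the largest fall of the 10 between chronic and acute stimulation. It spans 176.097 kb of chromosome 1 (106538178 to 106714274, minus strand, GRCm38), of which exons make up 4.08%. Its scaled signal was 105794, 111766 and 104399.7 in the acute libraries, 58493, 59033 and 45811 in the chronic, and 64841, 60498 and 59271 in the MEK-inhibited ones. All 6 chronically stimulated libraries lay below every acute library. The chronic mean was 1.97-fold lower than the acute mean, with a log2 fold change of -0.99 (SE 0.0978, n = 3 per group, limma adjusted p = 2.81e-07). The MEK-inhibited libraries were below the acute ones by a log2 change of -0.80 (limma adjusted p = 6.10e-06). Against chronic stimulation alone they were all slightly higher, by 0.19 (95% interval -0.02 to 0.39, limma adjusted p = 0.228). An antisense gene, D630008O14Rik, overlaps Bcl2, and since use of strand is not stated, signal of the pair cannot be told apart.

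Bcl2l1, which encodes BCL-XL, was nearly level across the 3 groups. Its signal was 13242, 13602 and 13167 in acute, 15049, 14218 and 12755 in chronic, and 14635, 14414 and 14367 in MEK-inhibited libraries. The chronic libraries spanned the acute ones, and the log2 difference was 0.07 (95% interval -0.10 to 0.24, limma adjusted p = 0.558). With the inhibitor against chronic stimulation it was 0.05 (-0.12 to 0.22, limma adjusted p = 0.759). This level is relative to the median gene: under library totals the chronic to acute difference was -0.42 (limma adjusted p = 9.71e-03).

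Mcl1, a short-lived survival protein's gene on chromosome 3 (95658788 to 95663176, plus strand), had signals of 7363, 7602 and 7869 in acute, 5714, 6909.5 and 7739 in chronic and 6209.6, 6069 and 7282 in MEK-inhibited libraries. Chronic library 3 lay within the acute range and the other 2 chronic libraries below it. The log2 difference between chronic and acute was -0.18 (95% interval -0.40 to 0.05, limma adjusted p = 0.223). It was called lower without chronic library 3 (-0.27, limma adjusted p = 0.0381) and under library totals (-0.67, limma adjusted p = 8.34e-05). With the inhibitor against chronic stimulation the difference was -0.05 (-0.28 to 0.17, limma adjusted p = 0.819), and the 2 groups overlapped. Against acute stimulation the MEK-inhibited libraries were all lower, by -0.23 (limma adjusted p = 0.136), a difference that was called in 4 alternatives and reached -0.61 under library totals (limma adjusted p = 3.60e-04).

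Bcl2a1b encodes a copy of A1, a survival protein induced by antigen receptor and NF-kB signalling. Its signal was low: 211, 152 and 169.9 in acute, 209.7, 225 and 256 in chronic, and 92.9, 82.3 and 80.2 in MEK-inhibited libraries. The 3 MEK-inhibited libraries lay below all others. Against chronic stimulation the log2 fold change was -1.38 (95% interval -1.99 to -0.77, limma adjusted p = 2.17e-03), and against acute stimulation the change was -1.01 (limma adjusted p = 0.0150). The latter call was lost without acute library 1 (-0.94, limma adjusted p = 0.0620). Acute and chronic libraries overlapped (0.37, 95% interval -0.24 to 0.98, limma adjusted p = 0.347). These values are uncertain in their gene of origin, since the Bcl2a1d transcript is 99.1% and the Bcl2a1a transcript 98.2% identical over 817 bases, and Gm29094 overlaps on the same strand. Bcl2a1d itself had means of 93.0, 180 and 39.0 in acute, chronic and MEK-inhibited libraries, and was called lower with the inhibitor against chronic stimulation (-2.07, limma adjusted p = 8.79e-04).

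Of the survival genes, then, 1 of 4 fell between chronic and acute, 1 of 4 with the inhibitor against chronic, and 2 of 4 with the inhibitor against acute, beside 15.9%, 7.65% and 11.5% of all genes, and none rose. Under library totals Bcl2, Bcl2l1 and Mcl1 were called lower between chronic and acute, and Bcl2, Mcl1 and Bcl2a1b between MEK-inhibited and acute.

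Among the BH3-only genes, 2 of 4 rose and 1 fell between chronic and acute, and 3 of 4 rose with the inhibitor against chronic stimulation. Of all genes, 18.0% rose and 15.9% fell in the former comparison and 9.93% rose in the latter. Under library totals Pmaip1 alone of the 4 rose between chronic and acute. Bcl2l11, whose product BIM binds all the survival proteins, moved in opposite directions in these comparisons. Its signal was 1753, 2357 and 1452 in acute, 1277, 1318 and 1280.3 in chronic, and 2244, 2260.0 and 2286 in MEK-inhibited libraries. The chronic libraries were all lower than the acute ones. The MEK-inhibited ones lay above acute libraries 1 and 3 and below acute library 2. The log2 change was -0.49 between chronic and acute (SE 0.140, limma adjusted p = 0.0110). With the inhibitor it was 1.75-fold higher than under chronic stimulation alone, a log2 change of 0.81 (95% interval 0.51 to 1.10, limma adjusted p = 3.98e-04). Against acute it was 0.32 (0.02 to 0.61, limma adjusted p = 0.112). Without acute library 2, the call between chronic and acute was lost (-0.29, limma adjusted p = 0.0753) and that between MEK-inhibited and acute gained (0.45, limma adjusted p = 0.0111).

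Pmaip1, the gene of NOXA, rose in each step from acute to chronic to MEK-inhibited libraries. Its values were 524, 614 and 635, then 1398, 1300.1 and 1444, then 1991, 1900.1 and 2149, with no overlap between any 2 groups. The chronic mean was 2.34-fold the acute mean, a log2 change of 1.22 (SE 0.127, limma adjusted p = 5.59e-07). The inhibitor added 0.54 (95% interval 0.27 to 0.81, limma adjusted p = 5.38e-03), and the MEK-inhibited mean was 3.41-fold the acute mean (1.76, limma adjusted p = 1.03e-08). The smaller step was lost when no minimum signal was set (0.47, limma adjusted p = 0.134).

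Bbc3, the gene of PUMA, followed the same order with its larger step at the inhibitor. It lies on chromosome 7 (16308393 to 16318205, plus strand). Its signal was 516, 705 and 469.5 in acute, 896, 1005 and 909 in chronic and 1974, 1958 and 2127 in MEK-inhibited libraries, again without overlap. The MEK-inhibited mean was 2.16-fold the chronic mean (log2 change 1.10, 95% interval 0.78 to 1.43, limma adjusted p = 3.49e-05) and 3.58-fold the acute mean (1.85, limma adjusted p = 4.74e-08). Between chronic and acute the change was 0.75 (SE 0.152, limma adjusted p = 8.30e-04). That call rests on the scaling: under library totals the difference was 0.26 (limma adjusted p = 0.184).

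Bmf, whose product senses loss of attachment and acts on BCL2, was near the minimum signal. Its values were 56.3, 28.2 and 34.0 in acute, 20.3, 49.6 and 84.3 in chronic and 50.5, 86.6 and 52.1 in MEK-inhibited libraries. All 3 groups overlapped, and the 95% interval of the chronic to acute difference, -0.95 to 1.38 on the log2 scale, leaves changes of either sign possible. With the inhibitor the differences were 0.41 from chronic (limma adjusted p = 0.699) and 0.62 from acute (limma adjusted p = 0.459).

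**Figure D2:**
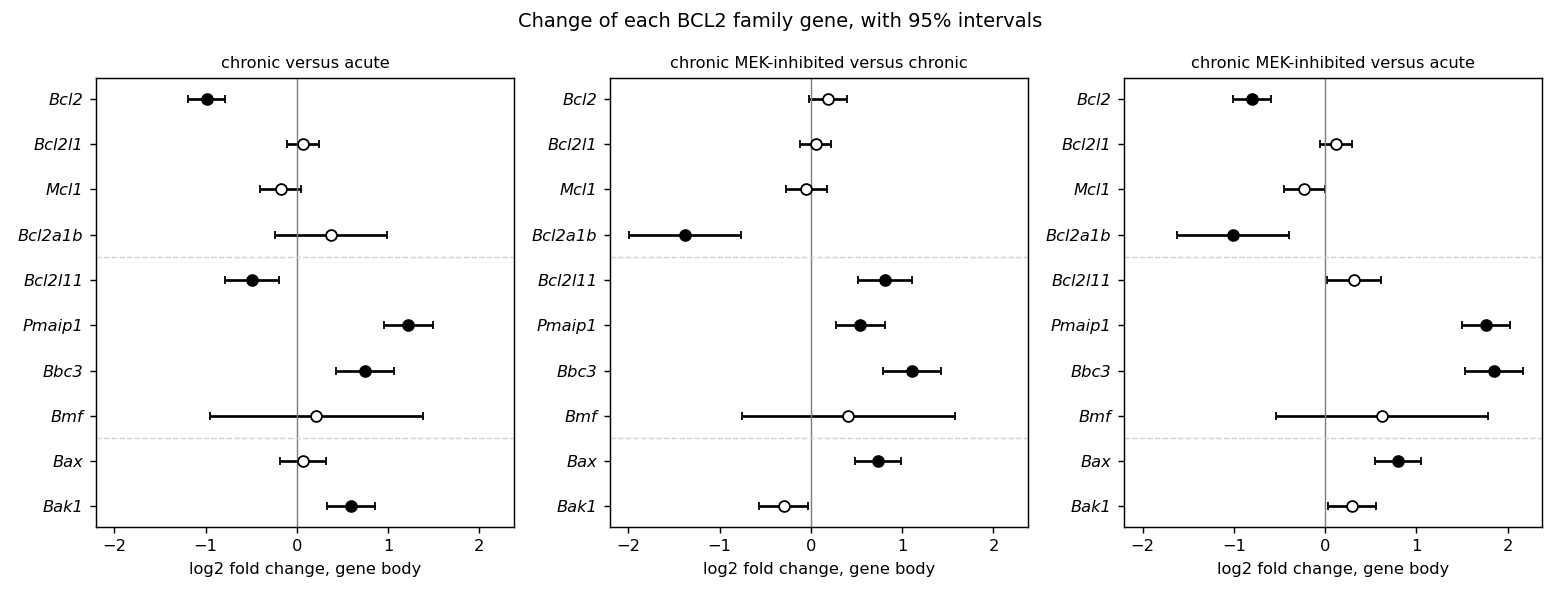
Log2 fold change of gene-body signal with its 95% interval for each of the 10 genes in the 3 comparisons; filled points have a limma adjusted p under 0.05 and dashed lines part the survival, BH3-only and pore-forming genes. Bcl2 is lower in both comparisons with acute stimulation, while Pmaip1 and Bbc3 are higher in all 3 comparisons.

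The pore-forming genes each rose in 1 of the comparisons with chronic stimulation, Bak1 between chronic and acute and Bax with the inhibitor. Bax, on chromosome 7 (45461697 to 45466898, minus strand), had signals of 1958, 2432 and 1950.0 in acute, 1905, 2183 and 2557 in chronic and 3488, 3669 and 3855 in MEK-inhibited libraries. The MEK-inhibited libraries were above all others, and the acute and chronic ranges overlapped. With the inhibitor the mean was 1.66-fold that of chronic stimulation alone (log2 change 0.74, 95% interval 0.48 to 0.99, limma adjusted p = 2.20e-04). Against acute stimulation the change was 0.80 (limma adjusted p = 6.35e-05). Chronic against acute was 0.07 (-0.19 to 0.32, limma adjusted p = 0.713), but under library totals it was called lower (-0.42, limma adjusted p = 9.32e-03). Gm45808, a protein-coding gene on the same strand, overlaps Bax, so the signal may hold both.

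Bak1 had signals of 1571, 2281 and 1731 in acute, 2976, 2530.1 and 2832 in chronic and 2228, 2338 and 2196 in MEK-inhibited libraries. Every chronic library was above every other library. The change between chronic and acute was 0.59 (SE 0.126, limma adjusted p = 1.23e-03), but under library totals it was 0.10 (limma adjusted p = 0.578). With the inhibitor against chronic stimulation it was -0.30 (95% interval -0.56 to -0.03, limma adjusted p = 0.12). Between MEK-inhibited and acute it was 0.29 (limma adjusted p = 0.101). Without acute library 2 the difference from chronic was called (-0.36, limma adjusted p = 0.0185), as was the one from acute (0.40, limma adjusted p = 0.0160). Ggnbp1 overlaps Bak1 on the opposite strand, so the signal may hold both.

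Compared per kb of gene, Mcl1 stood highest of the 10 genes in every group, with mean scaled signals of 1734, 1547 and 1486 per kb in acute, chronic and MEK-inhibited libraries. The median tested gene had 37.5 per kb. Exons make up 77.9% of the Mcl1 span and from 4.08% (Bcl2) to 38.8% (Pmaip1) of the others. The part of this difference in the order of genes was not tested. In the acute group Bcl2 (609), Bax (406), Bcl2l1 (261) and Bak1 (202) followed, then Pmaip1 (84.1), Bbc3 (65.6), Bcl2l11 (50.8), Bcl2a1b (20.6) and Bmf (1.89). Of the acute neighbours, Pmaip1 and Bbc3, and Bbc3 and Bcl2l11, overlapped in their libraries. In the chronic group Bax (426 per kb) was above Bcl2 (309), while Bcl2, Bak1 (302) and Bcl2l1 (274) overlapped from one neighbour to the next. With the inhibitor Bax reached 706, Bcl2 349, Pmaip1 286, Bcl2l1 283, Bak1 245 and Bbc3 235 per kb, and Pmaip1 overlapped Bcl2l1 as Bak1 overlapped Bbc3. Bcl2 was thus the next highest after Mcl1 in acute libraries and behind Bax as well in both chronic groups.

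The ratio of 2 genes within a library does not depend on how libraries are scaled. Bcl2 signal divided by Bax signal gave 51.2 ± 4.53, 25.2 ± 6.59 and 16.8 ± 1.63 in the acute, chronic and MEK-inhibited groups (mean ± SD, n = 3). The acute libraries lay above the rest, while the chronic ones, at 17.9 to 30.7, and the MEK-inhibited ones, at 15.4 to 18.6, overlapped. Bcl2 over Bcl2l11 was 59.9 ± 12.3, 42.1 ± 5.51 and 27.2 ± 1.53. The acute libraries, at 47.4 to 71.9, lay above the chronic ones, at 35.8 to 45.8, and these above the MEK-inhibited ones, at 25.9 to 28.9. Mcl1 over Pmaip1, whose product NOXA prefers MCL1 and A1, was 12.9 ± 0.964, 4.92 ± 0.721 and 3.23 ± 0.139. These are ratios of nascent signal over whole genes of unequal length, so that only their change between groups is read.

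In the pause region, 2 of the 6 tested genes rose between chronic and acute (10.7% of 7678 genes were called, with 5.37% up and 5.35% down). With the inhibitor against chronic, 1 rose (3.0% called, 1.56% higher and 1.43% lower), and against acute 2 rose (5.95% called, 3.44% higher and 2.51% lower). Pmaip1 had pause-region signals of 59.2, 78.9 and 90.9 in acute, 204, 226 and 128 in chronic and 155, 316 and 207 in MEK-inhibited libraries. Both chronic groups lay above the acute one (1.21, SE 0.316, limma adjusted p = 0.0112 for chronic and 1.46, limma adjusted p = 3.96e-03 for MEK-inhibited). Bbc3 had 118, 128 and 121 in acute, 184, 357 and 226 in chronic and 295, 297 and 341 in MEK-inhibited libraries. It too was above acute in every library of the other groups (0.98, SE 0.260, limma adjusted p = 0.0126, and 1.31, limma adjusted p = 1.77e-03). The rises of Pmaip1 and Bbc3 between chronic and acute were each lost without chronic library 2 (limma adjusted p = 0.0708 and 0.117), that of Pmaip1 also without acute library 1 (0.0621), and both under library totals (0.63 and 0.39 on the log2 scale). The Pmaip1 rise between MEK-inhibited and acute was lost without MEK-inhibited library 2 (limma adjusted p = 0.0665).

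Bcl2l11 was the 1 gene of the family whose pause region rose with the inhibitor over chronic stimulation. Its signal there was 114, 99.1 and 115 in acute, 52.3, 64.2 and 52.3 in chronic and 172, 134 and 172 in MEK-inhibited libraries, with no overlap between groups. The log2 change was 1.42 with the inhibitor (SE 0.322, limma adjusted p = 0.0105) and -0.90 between chronic and acute (limma adjusted p = 0.0737). The former was lost without MEK-inhibited library 1 (limma adjusted p = 0.0747) or 3 (0.0684), and the latter was called under library totals (-1.47, limma adjusted p = 4.51e-03). Bax had 269, 238 and 249 in acute, 291, 307 and 204 in chronic and 428, 361 and 304 in MEK-inhibited libraries, a difference from chronic of 0.45 (limma adjusted p = 0.392). Bcl2 had 167, 230.3 and 209, then 112, 106 and 165, then 104, 131 and 181, and its differences of -0.66 (chronic against acute, limma adjusted p = 0.174) and 0.11 (MEK-inhibited against chronic, limma adjusted p = 0.917) did not pass. Under library totals the former was called (-1.24, limma adjusted p = 7.29e-03). Mcl1 ranged from 140.3 to 369 over the 9 libraries with all groups overlapping. The other 4 genes did not reach the minimum, which was set on the deposited values, and had scaled pause-region signals of 9.71 to 49.8 for Bcl2l1, 7.66 to 69.0 for Bcl2a1b, 0 to 12.5 for Bmf and 0 to 18.1 for Bak1.

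**Figure D3:**
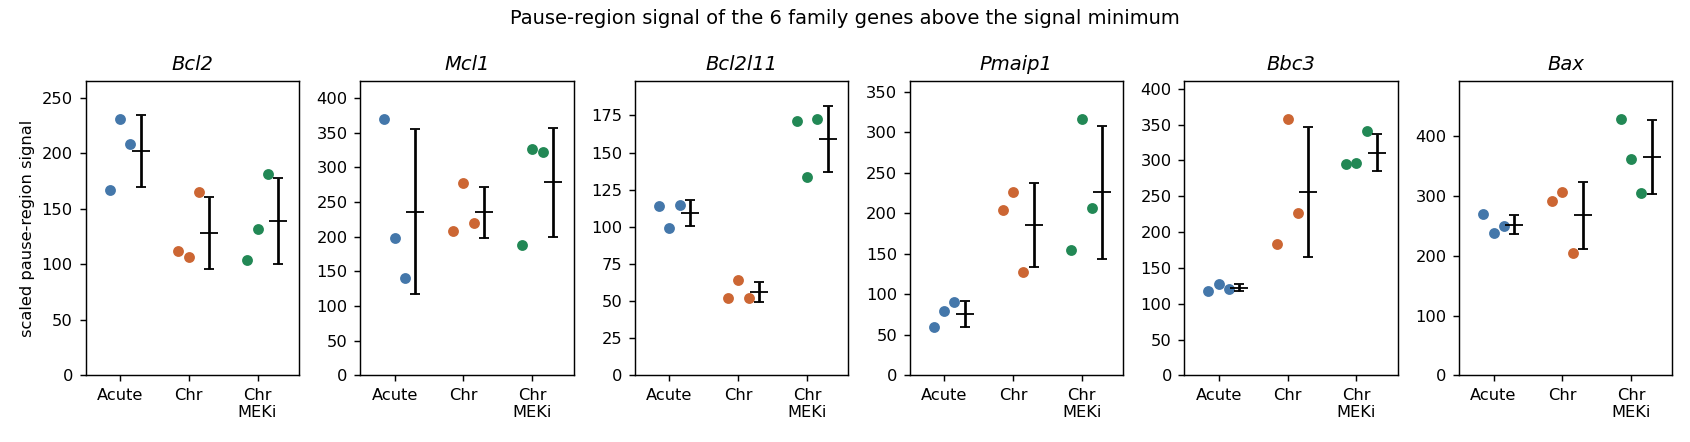
Scaled pause-region signal (linear axis from 0, own scale per gene) of the 6 BCL2 family genes that passed the minimum; points are the 3 libraries of a group and black marks are their mean ± SD. Bcl2l11 is lowest in the chronic libraries, at 52.3 to 64.2, and highest in the MEK-inhibited ones, at 134 to 172.

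Pausing, taken as the log2 difference between pause-region and gene-body signal of a library, was tested for the 6 genes within 7413 genes. Each region was scaled on its own, so a shift of pausing shared by most genes would not be seen. No gene was called in any comparison (0.00% each; limma, Benjamini-Hochberg), while up to 24 were in alternatives, none of them 1 of the 10. At an unadjusted p under 0.05 there were 749, 394 and 591 genes, or 10.1%, 5.31% and 7.97%. Of the 6 genes, Bbc3 alone was among them, with the inhibitor against chronic stimulation. No other tool was run for this measure.

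The tables hold a row per annotated transcript, so that nested transcripts of a gene show stretches of it, although overlapping rows share signal and are not independent. Their differences are given here with no test. For Bcl2l11, the long rows of 32 to 36 kb changed by -0.33 to -0.49 between chronic and acute and the short rows of 2.571 to 5.458 kb by 0.08 to 0.19. With the inhibitor against chronic, the short rows changed by 0.68 to 0.84, close to the 0.81 of the whole gene. The 5.458 kb row had mean signals of 259.6, 266 and 427 in acute, chronic and MEK-inhibited libraries, so the lower chronic level of the whole gene was not seen in this stretch. Bcl2 was lower in chronic than in acute libraries in both lengths of row, with differences of -0.99 over the whole gene and -0.60 over a row of 2.841 kb (means 5004, 3295 and 3376). The pause region of that short Bcl2 row held 1618 ± 369 in acute, 843 ± 106 in chronic and 707 ± 23.0 in MEK-inhibited libraries (SD, n = 3), well above the 202, 128 and 139 of the long row.

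Among the other BH3-only genes, Pmaip1 rows changed by 1.20 to 1.38 between chronic and acute and 0.54 to 0.56 with the inhibitor. Bbc3 rows changed by 0.69 to 0.95 and 0.73 to 1.16, and Bmf rows, at low signal, by -0.49 to 0.36 and -0.44 to 0.65. Of the pore-forming genes, Bax rows changed by -0.02 to 0.38 and 0.57 to 0.74, and Bak1 rows by 0.59 to 0.69 and -0.30 to -0.32. At a Bbc3 start at position 16310455, the pause region held 89.0 ± 23.7 in acute, 41.0 ± 18.1 in chronic and 219 ± 27.9 in MEK-inhibited libraries. There the chronic libraries were below the acute ones (-1.07) while at the start of the longest row, position 16309616, they were above (0.98); the difference between starts was not tested either. Bak1, nearly empty at the pause region of its main row, held 232 ± 96.8, 188 ± 17.2 and 157 ± 38.4 at another start. When the row with the most pause-region signal was taken for each gene, a choice made after seeing the data, Bcl2 was called lower in chronic (-0.88, limma adjusted p = 1.09e-03) and in MEK-inhibited libraries (-1.11, limma adjusted p = 1.68e-04) against acute.

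**Figure D4:**
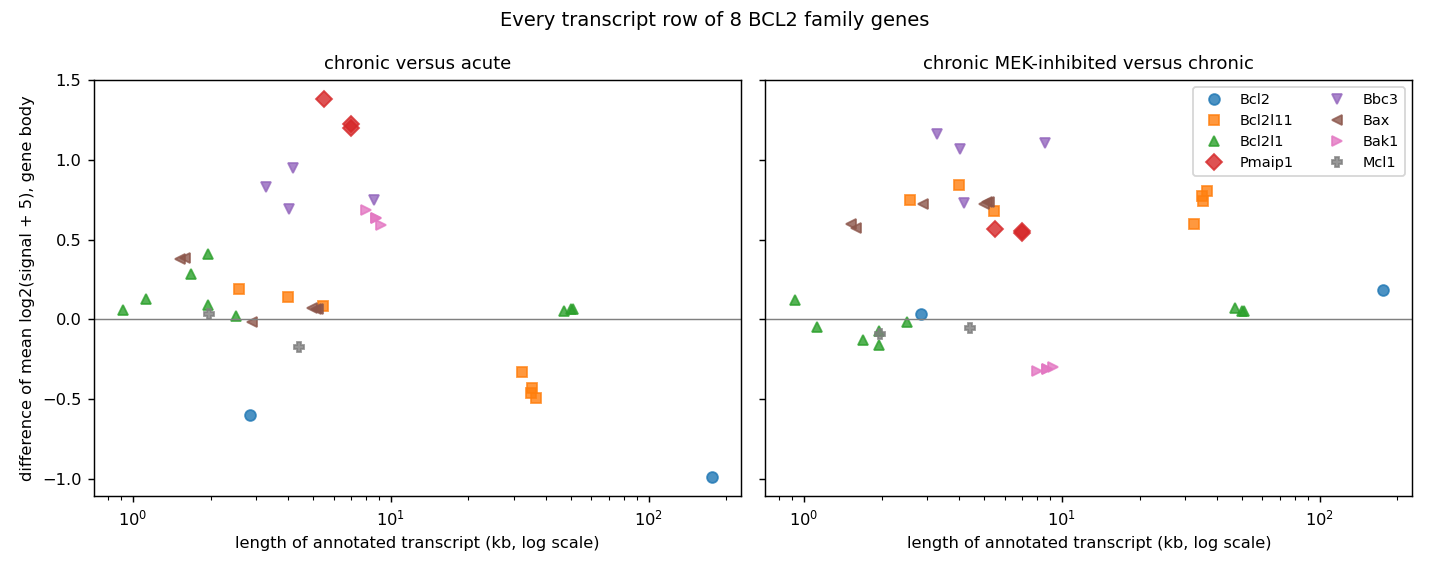
Difference of the group means of log2(signal + 5) for every transcript row of 8 BCL2 family genes against the length of the annotated transcript in kb (log axis), for chronic against acute and for MEK-inhibited against chronic. The short Bcl2l11 rows lie at 0.08 to 0.19 for chronic against acute, above the long rows at -0.33 to -0.49.

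The 10 genes were set beside the rest of the pathway, by lists of symbols. Each list is to be read against all genes, of which 18.0% rose and 15.9% fell between chronic and acute. These shares were 9.93% and 7.65% with the inhibitor against chronic, and 14.4% and 11.5% against acute. Medians over all genes were -0.02, 0.04 and 0.00. Of 16 further BCL2 family symbols, 10 were tested: 3 rose and 0 fell between chronic and acute, 1 rose and 3 fell with the inhibitor against chronic, and 4 rose and 1 fell against acute (medians 0.40, -0.33 and 0.08). Under library totals these counts were 1 and 3, 1 and 2, and 0 and 4, higher and lower. Bcl2l2, the gene of the survival protein BCL-W, rose from 201 ± 20.8 in acute to 671 ± 115 in chronic libraries (SD, n = 3; 1.70, SE 0.215, limma adjusted p = 5.63e-06) and was lower with the inhibitor (-0.73). The fall with the inhibitor was not called under library totals. The Bcl2l2 signal may hold that of Gm20521, a protein-coding gene that overlaps it on the same strand. Bnip3, a mitophagy receptor gene, rose by 0.87 under chronic stimulation and was lower with the inhibitor by -0.94 (limma adjusted p = 1.68e-04); its rise was lost under library totals. Bik, a BH3-only gene, was higher with the inhibitor than under chronic stimulation (1.06, limma adjusted p = 0.0241), a call lost when any of chronic library 1 or 3 or MEK-inhibited library 1 or 2 was left out. Bad, the BH3-only gene whose product growth factor kinases phosphorylate, was higher than acute in both chronic groups (0.68 and 0.66). Under library totals Bad was called higher in neither. Bnip3l was lower with the inhibitor than in acute libraries (-0.90), and lost that call without acute library 1 or 3 or MEK-inhibited library 3. Bcl2l12 was higher with the inhibitor than in acute libraries (0.62), but was not called higher under library totals. The remaining tested genes, Bid (-0.25, 0.09 and -0.16), Bcl2l13 (0.15, 0.08 and 0.23) and Bcl2l15 (0.53, -0.69 and -0.16), passed in none.

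Downstream of the pore, all 17 genes of the apoptosome, caspases and their inhibitors were tested: 4 rose and 2 fell between chronic and acute, 4 and 2 with the inhibitor against chronic, and 6 and 2 against acute (medians 0.22, 0.18 and 0.28). Under library totals they were 2 and 7, 4 and 2, and 3 and 5. With the main scaling, 18.0% of all genes rose and 15.9% fell, then 9.93% and 7.65%, and 14.4% and 11.5%. Apaf1, the scaffold of the apoptosome that cytochrome c activates, was higher in each step (0.43, then 0.84 with limma adjusted p = 3.20e-06). Birc5, the gene of survivin, which also serves cell division, rose by 0.97 and then 0.52. Diablo, an antagonist of caspase inhibitors, fell under chronic stimulation (-0.87), as did Birc2 (-0.70), while Birc3 fell with the inhibitor (-0.74). Gm49027, a protein-coding gene, overlaps Diablo on the same strand.

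In the death receptor arm, which joins the BCL2 family through BID, 12 of 12 genes were tested: 3 rose and 3 fell between chronic and acute, 3 and 1 with the inhibitor against chronic, and 5 and 3 against acute (medians -0.20, 0.15 and 0.33). Under library totals they were 2 and 7, 4 and 0, and 4 and 3. With the main scaling, 18.0% of all genes rose and 15.9% fell, then 9.93% and 7.65%, and 14.4% and 11.5%. Casp8, the initiator caspase, fell from 15527 ± 770.0 in acute to 7041 ± 883.5 in chronic libraries (-1.15, limma adjusted p = 4.43e-08). Its brake Cflar fell too (-0.71), while the ligands Fasl (1.06) and Tnfsf10 (1.11) rose. Fas, the receptor, rose with the inhibitor from 449.8 ± 89.8 to 1215 ± 127 (1.44, limma adjusted p = 1.18e-05). Tnfrsf1b rose with it by 1.01 and Tnfrsf10b, a receptor for Tnfsf10, was higher than acute by 1.40. Tnf was lower with the inhibitor than under chronic stimulation (-0.42), a call lost under library totals, on the deposited scale and without chronic library 2 or 3 or MEK-inhibited library 2.

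Pmaip1, Bbc3 and Bax are known p53 targets, and a list of p53 with 13 other targets was set beside them. Of these 14 genes, 10 rose and 0 fell between chronic and acute, 8 and 0 with the inhibitor against chronic, and 11 and 0 against acute (medians 0.63, 0.38 and 0.90), but under library totals they were 2 and 4, 8 and 0, and 8 and 1. With the main scaling, 18.0% of all genes rose and 15.9% fell, then 9.93% and 7.65%, and 14.4% and 11.5%. Cdkn1a, the cell cycle inhibitor p21, had means of 3940 ± 637 in acute, 11005 ± 788 in chronic and 16016 ± 850.2 in MEK-inhibited libraries (SD, n = 3). Phlda3 was higher in each step (0.95 and 0.86), the latter call being lost without chronic library 1 or MEK-inhibited library 3. Perp, at low signal, was higher in chronic than in acute libraries (1.73, limma adjusted p = 0.0257), which was lost under library totals and without acute library 3 or chronic library 2. Trp53inp1 rose with the inhibitor (0.89). Trp53 itself was not called, with differences of -0.18, 0.09 and -0.09.

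Of genes known to regulate members of the family, 16 of 17 symbols were tested, as 17 genes: 7 rose and 6 fell between chronic and acute, 3 and 4 with the inhibitor against chronic, and 5 and 5 against acute (medians 0.29, 0.14 and -0.04). Under library totals they were 1 and 7, 2 and 2, and 3 and 7. With the main scaling, 18.0% of all genes rose and 15.9% fell, then 9.93% and 7.65%, and 14.4% and 11.5%. Foxo1, a transcription factor known to act on Bcl2l11, fell from 21305 ± 1598 in acute to 7305 ± 806 in chronic libraries and was 16810 ± 665 with the inhibitor. Foxo3, its relative, was higher in each step (0.75 and 0.28). Egr1, an ERK target, had means of 492 ± 68.8, 274 ± 36.4 and 32.9 ± 9.36. Bach2, a repressor of effector genes, fell in each step (-0.96 and -0.57), and E2f1, a cell cycle factor, was higher than acute in both chronic groups (1.02 and 1.21). Dynll2, whose product tethers BMF to myosin motors, was higher by 0.81 under chronic stimulation, a call lost under library totals. Trib3 fell under chronic stimulation (-1.13), and Ppp1r15a, a stress response gene, was lower with the inhibitor than without (-0.83), a call lost under library totals, on the deposited scale and without chronic library 2 or MEK-inhibited library 1.

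**Figure D5:**
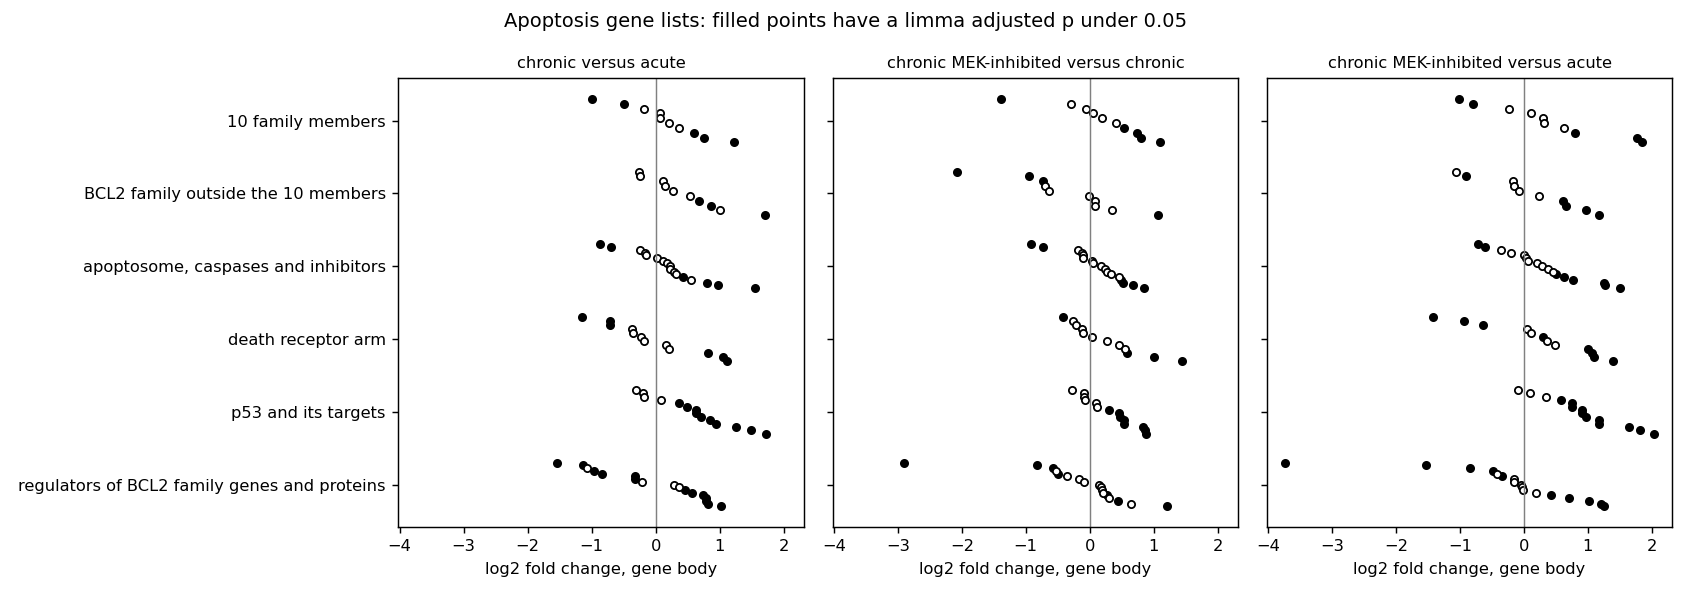
Log2 fold changes of gene-body signal for the 10 genes and for each of the 5 further lists in the 3 comparisons; each point is a gene, filled where its limma adjusted p is under 0.05, and points are spread by rank within a list. The p53 list has no gene called lower here, but 4 called lower between chronic and acute under library totals.

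The genes whose log2 signal over the 9 libraries was most like a member's, by Pearson's r as a description, were Atp11b (0.995) and Fyn (0.994) for Bcl2, and Wdr90 (0.997) and Cdkn1a (0.995) for Pmaip1. For Bcl2l11 they were Il4ra (0.985) and Mknk2 (0.970), and for Bbc3 Kifc5b (0.993) and Furin (0.993). Those of Bak1 were Per1 (0.975) and Prr36 (0.970), of Bax H2afv (0.983) and Cebpb (0.979), and of Bcl2a1b Rgs1 (0.976) and Hbegf (0.975). The 9 libraries fall in 3 groups, and every pair shares these libraries and groups.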

How the data were processed

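Nascent RNA of 9 mouse CD8+ T cell libraries was measured as paired reads of 100 bases. The authors deposited gene-body and pause-region tables with a row per transcript, whose values are coverage-like signal. Low values are whole multiples of a step of 0.764 to 1.06 per library, which is not a read, so depth is unknown. Precision was judged from the spread between libraries, which differed between genes. In the gene body, the SE of the chronic to acute difference was 0.0978 for Bcl2 and 0.554 for Bmf. The limits of each region, use of strand and the scaling are not given in the sources used here. The submitters' processing notes name FastQC 0.12.0, Trim Galore 0.6.10, STAR 2.7.0a, SAMtools 1.19.2, deepTools 0.1.9, R 4.1.2 and mm10. Actinomycin D controls that the labels' protocols mention were not analysed here.

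Rows were matched to GENCODE M21 (117346 of 118482 with their version, 383 without it, 753 unmatched) and the row with the highest mean gene-body signal was kept per gene. A gene was tested when 3 or more libraries reached a signal of 50 (15942 genes in the gene body, 7678 in the pause region, 7413 in both). Libraries were brought to a common scale over those genes, separately for each region, by trimmed means without weights. These left out 30% of log ratios and 5% of levels at each end. log2(signal + 5), which understates changes of low genes, was fitted in limma 3.58.1 (R 4.3.3) with intensity trend, robust moderation and a mean per group over all 9 libraries, with Benjamini-Hochberg adjusted p under 0.05 as the call; the test is two-sided. The fit was tested on simulated data. Promoters and figures used Python 3.11.15, pandas 2.3.3, Biopython 1.88 and matplotlib 3.10.9. Sequences are RefSeq's (GRCm38.p6).

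The members, lists and tests were chosen with earlier results of these data known. All 10 genes are named, as are the BCL2 family genes measured and, from each list and comparison, up to 2 called genes with the largest rise and 2 with the largest fall; Trp53 and Foxo3 were added after their values were seen. Some genes that this rule names are not reported here.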

Additional observations from a re-analysis of the deposited data

How the results depend on the processing

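The gene-body calls of Bcl2, Pmaip1 and Bbc3 with the inhibitor against acute, of Bcl2 and Pmaip1 between chronic and acute, of Bbc3, Bcl2l11, Bax and Bcl2a1b with the inhibitor against chronic, and of Bax against acute did not change under any of the 21 alternatives. Between chronic and acute, Bcl2l1 and Bax turned to -0.42 under library totals and -0.41 on the deposited scale. Leaving out 1 library each gave 4 to 6, 5 to 6 and 4 to 7 called genes of the 10 in the chronic to acute, MEK-inhibited to chronic and MEK-inhibited to acute comparisons, and 0 to 2, 0 to 1 and 1 to 2 of 6 in the pause region. With no minimum signal the first 2 pause-region comparisons called 0 of the 10. On the deposited scale, 1 gene was higher and 5 lower between chronic and acute; Bbc3 was 0.28 (limma adjusted p = 0.163), Bak1 0.12 (0.519) and Mcl1 -0.65. Between chronic and acute, Bcl2l11 lost its call with no minimum (-0.48, 0.107) and with rows summed (-0.35, 0.151). Over all genes, no minimum gave 1637 against 2802 gene-body calls for MEK-inhibited against chronic and 2642 against 4118 against acute, and in the pause region 494 against 823, 107 against 230 and 206 against 457; library totals gave 1723 pause-region calls between chronic and acute. Without acute library 1 the pause region had 545 calls between chronic and acute and 300.0 between MEK-inhibited and acute. Without MEK-inhibited library 1, 2 or 3 there were 264, 233 and 248 against acute and 120.0, 119 and 109 against chronic, and 144 against chronic without chronic library 2. For pausing, no minimum called 24 genes between chronic and acute and 2 with the inhibitor against chronic, library totals 4 and a pseudocount of 0.5 or leaving out MEK-inhibited library 3 called 1 between chronic and acute, with none of the 10 genes among them. Causes of these shifts were not tested. With the replicate number as a block, the gene body held 5, 5 and 5 called genes of the 10 and the pause region 2, 1 and 2 of 6, and no call of a member changed. Same-numbered libraries did not deviate together (correlations -0.53 to 0.10 over 9 pairs), so the numbers show no pairing. Over the 18 pairs with unlike numbers the correlations were -0.37 to 0.51, highest for acute library 2 with MEK-inhibited library 1. The source of these correlations was not tested. Signal in the pause region was low, which limits what can be seen there.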
